A study of Mus musculus with 12 samples.

Results

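A set of 10 genes of arginine uptake, arginine breakdown and polyamine turnover was followed in macrophages sorted from mouse bone marrow. The 10 genes were Slc7a1, Slc7a2, Arg1, Arg2, Nos2, Odc1, Srm, Sms, Smox and Sat1. They were picked by symbol from a count table of 56832 gene entries, where all 10 were found, and 9 of them passed the low-count filter. RNA was sequenced from 6 leukemic libraries, 3 female and 3 male, labelled day 11 and made from mice with late disease after transplantation of cells of bcCML, a model of blast-crisis chronic myeloid leukemia. The gate used no marker of the transplanted cells. The 6 non-leukemic libraries, 3 female and 3 male, came from healthy mice. In both conditions the sort kept cells positive for CD45 and F4/80 and negative for Ly6g and Ly6c. The genes lie on chromosomes 2 (Smox), 4 (Srm), 5 (Slc7a1), 8 (Slc7a2), 10 (Arg1), 11 (Nos2), 12 (Arg2 and Odc1) and X (Sms and Sat1) in the GENCODE annotation of build GRCm38. The labels name no strain, age or genotype, and do not say whether a replicate was a separate animal or a pool, so p-values measure the spread between libraries, which may be technical.

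Macrophages take up arginine through cationic amino acid transporters and split it along competing routes. Arginases make ornithine and urea, while the inducible nitric oxide synthase makes nitric oxide and citrulline, and the balance of these enzymes is widely used to describe macrophage activation in the mouse. Ornithine is the start of the polyamines: it is decarboxylated to putrescine, which is extended to spermidine and then to spermine. Spermine can be oxidised back to spermidine, and acetylation marks polyamines for export or breakdown.

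Total counts were 22437689 to 30014855 in leukemic and 16911827 to 26611831 in non-leukemic libraries. Levels are given as CPM, a gene's counts scaled by its library's total, and a count of 0 allows up to 3 counts, which is 0.1 to 0.177 CPM at these depths. The 9 macrophage markers checked, among them Adgre1, Csf1r and the C1q genes, were all tested and together held 0.0455% to 0.108% of counts in leukemic and 0.1% to 0.408% in non-leukemic libraries. Transcripts of the antigens that the sort selected against were present too: Ly6g had 4.76 to 24.2 CPM in leukemic and 31.1 to 77.9 CPM in non-leukemic libraries, and Ly6c2 had 121 to 409.9 CPM in leukemic and 173 to 449.7 CPM in non-leukemic libraries. Some lists held more than the macrophage list in every library. Neutrophil markers held 0.712% to 1.95% in leukemic and 2.36% to 5.71% in non-leukemic libraries. Eosinophil, basophil and mast cell markers held 1.13% to 3.65% and 0.556% to 1.1%. Early granulocyte and progenitor markers held 0.735% to 1.23% and 0.554% to 1.23%. In these bulk samples, fewer cells of a type and less RNA per cell cannot be told apart, and a gene's level cannot be assigned to macrophages alone. A pair of libraries stood apart: in female leukemic replicate 1 counts fell on only 17891 genes, while every other library reached 19521 to 21247. In male non-leukemic replicate 3 the macrophage markers took 0.408% of counts, and 0.1% to 0.15% in the rest of the non-leukemic libraries. Over both sexes, Arg1, Arg2, Odc1 and Sat1 are given below with and without both libraries. Most effects by sex and most sex differences are given with all libraries, and some of them rest on either library.

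With all 12 libraries and sex as a term, edgeR's quasi-likelihood test called 1 of the 9 tested genes higher and 1 lower in leukemic libraries at an adjusted p under 0.05, while 7 did not pass. Over all 15758 genes tested, 8.71% were called higher and 9.2% lower. Smox fell and Srm rose. The median log2 fold change was -0.11 over the 9 genes and -0.01 over all genes tested.

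**Figure D1:**
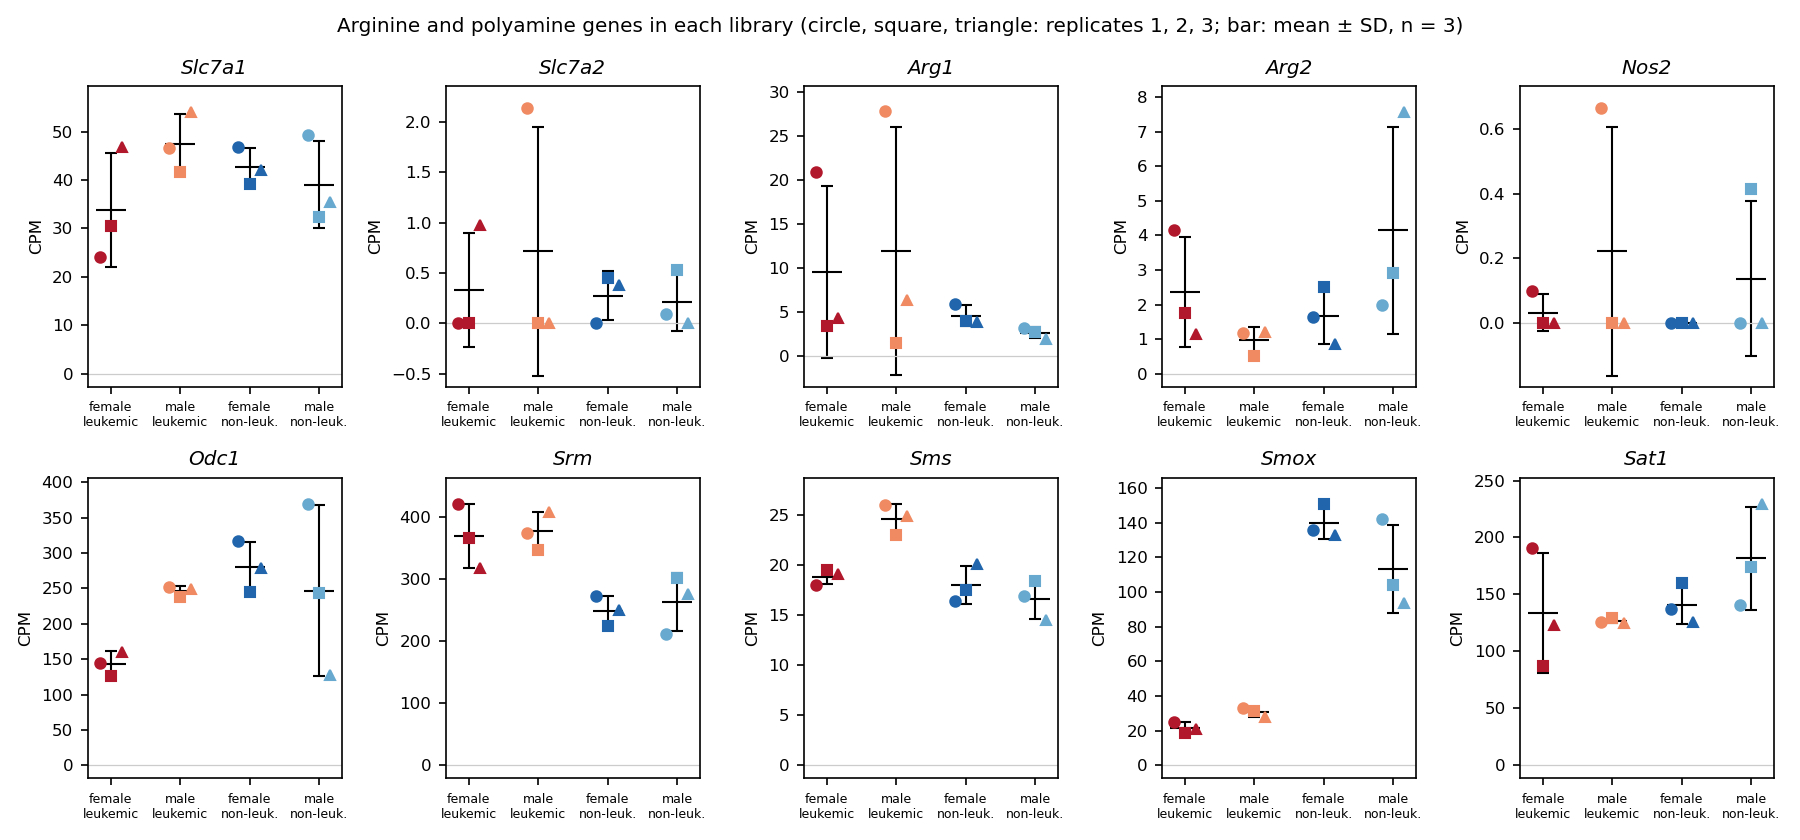
CPM (y axis, linear) of the 10 genes in each of the 12 libraries, by sex and condition (x axis), with the mean and SD of 3 libraries as a bar. Smox lay between 18.7 and 33.2 CPM in the leukemic and between 93.6 and 151 CPM in the non-leukemic libraries, while Arg1 was high only in replicate 1 of each leukemic group, at 20.9 and 27.9 CPM.

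Smox encodes spermine oxidase, which turns spermine back into spermidine with release of hydrogen peroxide. It had 25.2, 18.7 and 21.2 CPM in the female leukemic libraries and 33.2, 31.1 and 27.8 CPM in the male leukemic libraries. In female non-leukemic libraries it had 136, 151 and 133 CPM, and in male non-leukemic libraries 142, 104 and 93.6 CPM. All 6 leukemic libraries were below all 6 non-leukemic libraries, which held for 3.63% of the genes tested in that direction and for 8.68% in either. The mean was 26.2 ± 5.62 CPM in leukemic and 127 ± 22.7 CPM in non-leukemic libraries (SD, n = 6 each). Smox fell by 2.35 ± 0.17 on the log2 scale (SE, edgeR adjusted p = 2.76e-06), and passed in all 21 other settings and library omissions tried, with log2 fold changes of -2.47 to -2.22.

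Smox was called lower in both sexes. Its log2 fold change was -2.67 ± 0.21 in females (edgeR adjusted p = 6.94e-05) and -2.03 ± 0.20 in males (edgeR adjusted p = 0.000163), and the difference between the sexes, females minus males, was -0.64 ± 0.28 (adjusted p = 0.819). The 3 genes whose pattern over the 12 libraries was nearest to that of Smox, by the root mean square difference of standardized log2 CPM among 9318 candidates, were Rab3il1 (0.138), Fech (0.144) and Prxl2a (0.177). Fech encodes ferrochelatase, the last enzyme of heme synthesis, and had 98.2 to 136 CPM in leukemic and 448 to 909.7 CPM in non-leukemic libraries. Markers of red cell precursors moved in the same libraries: all 10 tested fell, and their summed share was 0.0726% to 0.144% of counts in leukemic and 1.47% to 1.92% in non-leukemic libraries, with no marker at 0 throughout. Of 9 markers of marrow resident macrophages 7 fell, at 0.0177% to 0.0411% of counts in leukemic and 0.0785% to 0.179% in non-leukemic libraries. Of 12 neutrophil markers 9 fell, at 0.712% to 1.95% in leukemic and 2.36% to 5.71% in non-leukemic libraries. No marker of these lists was at 0 throughout either, and the part of the 3 lists in the fall of Smox was not tested.

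Upstream sequence of 3 of the genes is shown because Smox gave the largest fall among the 9 tested genes, Odc1 starts the pathway and Sms closes it. The RefSeq promoter table for build GRCm38.p6 matched 5 of the 10 genes, Smox, Slc7a1, Odc1, Sat1 and Sms. They had 7 start sites, of which Sms and Slc7a1 have 2 each. Srm, Arg1, Arg2, Nos2 and Slc7a2 had no match, so no motif was searched for them. Bases after a start site were not searched for any gene. Each line gives the 250 bases before a start site, 5′ to 3′ on the gene's strand, with the E-box CACGTG in capitals. For Sms only the start site whose window held the E-box is shown. The Smox window is chr2:131491612-131491861 on the plus strand, the Odc1 window chr12:17544623-17544872 on the plus strand, and the Sms window chrX:157492288-157492537 on the minus strand.
Smox: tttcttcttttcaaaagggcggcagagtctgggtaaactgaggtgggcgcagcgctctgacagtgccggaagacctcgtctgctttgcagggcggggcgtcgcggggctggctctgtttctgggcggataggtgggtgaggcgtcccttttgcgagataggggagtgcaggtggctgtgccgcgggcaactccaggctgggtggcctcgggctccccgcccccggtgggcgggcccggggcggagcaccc
Odc1: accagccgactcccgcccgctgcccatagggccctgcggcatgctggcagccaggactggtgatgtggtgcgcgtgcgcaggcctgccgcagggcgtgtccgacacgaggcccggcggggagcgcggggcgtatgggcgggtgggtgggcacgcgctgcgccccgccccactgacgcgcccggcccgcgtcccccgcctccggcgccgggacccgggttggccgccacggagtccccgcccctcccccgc
Sms: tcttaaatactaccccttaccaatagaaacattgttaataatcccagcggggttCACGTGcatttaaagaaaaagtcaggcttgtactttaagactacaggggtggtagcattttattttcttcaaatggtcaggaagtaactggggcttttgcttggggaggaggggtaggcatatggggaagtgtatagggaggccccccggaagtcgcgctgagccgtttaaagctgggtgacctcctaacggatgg
The E-box, which is its own reverse complement, is a motif bound by MYC and related factors, and 6.02% of the 32851 promoter windows of this length held it. Among the 7 windows of these genes only the Sms window printed above held it, 196 bases before the start site, and the window of the other Sms start site did not. The GATA motif was searched on both strands in the spelling AGATAA only, which was in 9.99% of all windows and in none of the 7. Other spellings were not counted, and the Smox window printed above holds AGATAG. The Smox and Odc1 windows had 20 and 35 CG dinucleotides, against a median of 6 over all windows, while the Sms window shown had 7 and that of the other Sms start site, chrX:157491369-157491618 on the minus strand, had 32.

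Slc7a1 encodes CAT1, a cationic amino acid transporter that takes up arginine. It had 24.0, 30.4 and 46.8 CPM in the female leukemic and 46.5, 41.6 and 54.0 CPM in the male leukemic libraries. The female non-leukemic libraries had 46.8, 39.2 and 42.1 CPM and the male non-leukemic libraries 49.3, 32.3 and 35.5 CPM. The ranges overlapped, and the log2 fold change was -0.11 ± 0.17 (SE, edgeR adjusted p = 0.721). The lowest 2 values of all 12 were those of female leukemic replicates 1 and 2.

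Slc7a2, the transporter CAT2 that activated macrophages can induce, was near the detection limit. It had 83 counts in leukemic libraries, 61 of them in male replicate 1 and 22 in female replicate 3, and 30 counts in non-leukemic libraries, spread over 4 libraries. Its highest level was 2.14 CPM in leukemic and 0.532 CPM in non-leukemic libraries. The log2 fold change of 0.93 ± 1.53 (SE, edgeR adjusted p = 0.740) turned negative without male leukemic replicate 1 (-1.18) or female leukemic replicate 3 (-0.19). Exons of Slc7a2 and of a non-coding gene on the other strand overlap in the GENCODE annotation, and reads within the overlap cannot be told apart without strand.

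Arg1, the cytosolic arginase, had 20.9, 3.45 and 4.41 CPM in the female leukemic and 27.9, 1.54 and 6.45 CPM in the male leukemic libraries. In female non-leukemic libraries it had 5.98, 4.04 and 3.87 CPM, and in male non-leukemic libraries 3.26, 2.72 and 2.02 CPM. Replicate 1 of each leukemic group stood far above the rest, 3 of 6 leukemic libraries were above all non-leukemic libraries, and male leukemic replicate 2 was below all of them. The mean was 10.8 ± 10.9 CPM in leukemic and 3.65 ± 1.36 CPM in non-leukemic libraries (SD, n = 6 each), while the median was 5.43 CPM in leukemic and 3.57 CPM in non-leukemic libraries. The log2 fold change was 1.58 ± 0.64 (SE, edgeR adjusted p = 0.110). It was 1.06 without female leukemic replicate 1 and 0.87 without male leukemic replicate 1, and 0.81 (edgeR adjusted p = 0.457) without both libraries that stood apart. Over all other settings the adjusted p ran from 0.0331, with DESeq2, to 0.457.

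Arg2, the mitochondrial arginase, was low throughout. It had 4.16, 1.76 and 1.16 CPM in the female leukemic and 1.19, 0.524 and 1.21 CPM in the male leukemic libraries. The female non-leukemic libraries had 1.63, 2.50 and 0.864 CPM and the male non-leukemic libraries 1.99, 2.90 and 7.56 CPM. In each condition the highest value came from the library that stood apart. Over both sexes the log2 fold change was -0.85 ± 0.68 (SE, edgeR adjusted p = 0.451), and -0.82 (adjusted p = 0.197) without these libraries, while the adjusted p ran from 0.102 to 1.00 over all other settings. In males alone the 3 leukemic libraries were below the 3 non-leukemic libraries, and the log2 fold change was -2.27 ± 0.73 (edgeR adjusted p = 0.0884). With 1 library at a time left out, the male value ran from -2.605 to -1.43. In females the log2 fold change was 0.57 ± 0.71 (edgeR adjusted p = 0.693), and -0.23 without the libraries that stood apart.

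The gene nearest to Arg2 in pattern was Ly6c2 (root mean square difference 0.309), which encodes an antigen that the sort selected against. Ly6c2 had 409.9 CPM in female leukemic replicate 1 and 121 to 198 CPM in the other leukemic libraries. It had 449.7 CPM in male non-leukemic replicate 3 and 173 to 304 CPM in the other non-leukemic libraries. The next genes were Rhog (0.327) and Rab5if (0.343). The neutrophil markers, of which 9 of 12 tested fell, were also highest in these libraries, at 1.95% of counts in female leukemic replicate 1, where the leukemic range was 0.712% to 1.95%, and at 5.71% in male non-leukemic replicate 3, where the non-leukemic range was 2.36% to 5.71%. Neutrophil markers were not alone in this. The macrophage markers (0.108% and 0.408%) and the T and NK cell markers (0.231% and 0.0519%) were likewise highest of their condition in the same libraries. No marker of these lists was at 0 throughout, and their part in the Arg2 values was not tested. Arg2 exons overlap those of Vti1b on the other strand in GENCODE, and Vti1b had 23666 counts in all against 654 for Arg2. Reads within the overlap cannot be told apart in libraries without strand, and how they were counted is not stated.

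Nos2, the inducible nitric oxide synthase that competes with arginase for arginine, did not pass the low-count filter. It had 3 counts in female leukemic replicate 1, 19 in male leukemic replicate 1 and 7 in male non-leukemic replicate 2, and 0 in the other 9 libraries. An exact two-sided permutation test of CPM over all arrangements of the 12 libraries gave p = 0.727, where the smallest possible p is 0.00216. Both leukemic libraries with Nos2 counts were the libraries highest in Arg1, but the 3 counts of the female library are what a count of 0 allows. Male non-leukemic replicate 2, with Nos2 at 0.414 CPM, had Arg1 at only 2.72 CPM.

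**Figure D2:**
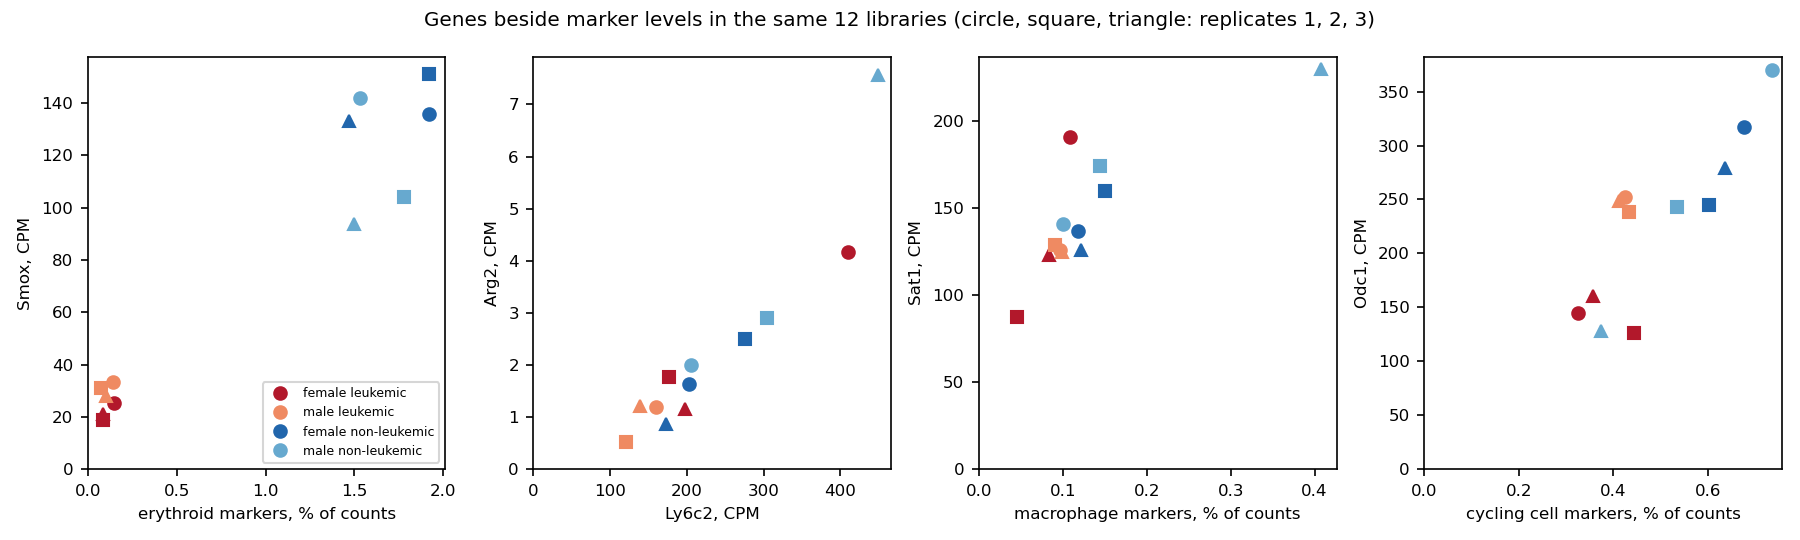
CPM of 4 genes (y axes) in the 12 libraries against the summed share of counts of a marker list or the CPM of Ly6c2 (x axes), coloured by sex and condition. Smox and the erythroid share separate the conditions, with 0.0726% to 0.144% in leukemic and 1.47% to 1.92% in non-leukemic libraries, and the highest Arg2 levels, 4.16 and 7.56 CPM, stand in the libraries highest in Ly6c2.

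Odc1 encodes ornithine decarboxylase, which makes putrescine and limits the rate of polyamine synthesis. It had 145, 126 and 160.3 CPM in the female leukemic libraries and 252, 238 and 249 CPM in the male leukemic libraries. In female non-leukemic libraries it had 317, 245 and 279 CPM, and in male non-leukemic libraries 369.9, 243 and 128 CPM. In females the ranges did not overlap, with all leukemic libraries lower, whereas in males the leukemic libraries lay within the wide non-leukemic range. Over both sexes the log2 fold change was -0.55 ± 0.22 (SE, edgeR adjusted p = 0.114). It was -0.71 without the libraries that stood apart (adjusted p = 0.00650) and -0.72 without male non-leukemic replicate 3 alone (adjusted p = 0.00495), and no other setting passed, up to an adjusted p of 1.00.

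By sex, the log2 fold change of Odc1 was -0.95 ± 0.28 in females (edgeR adjusted p = 0.0568) and -0.14 ± 0.28 in males (adjusted p = 0.838). The difference between the sexes was -0.81 ± 0.39 (edgeR adjusted p = 0.819). Of 10 markers of cycling cells 7 fell in the same comparison, Mki67 among them, and no marker was at 0 throughout. Their summed share was 0.325% to 0.445% in leukemic and 0.373% to 0.737% in non-leukemic libraries. Male non-leukemic replicate 3 had both the lowest cycling share and the lowest Odc1 level of the non-leukemic libraries, and male replicate 1 had the highest of each. Among the leukemic libraries it was otherwise: female replicate 2 had the highest cycling share, 0.445%, and the lowest Odc1 level, 126 CPM. The part of the cycling markers in the Odc1 values was not tested. The genes nearest to Odc1 in pattern were Phb2 (0.301), Stoml2 (0.313) and Mllt3 (0.358).

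Srm encodes spermidine synthase, which extends putrescine to spermidine. It had 422, 367 and 319 CPM in the female leukemic and 375, 348 and 409 CPM in the male leukemic libraries. The female non-leukemic libraries had 273, 224 and 249.8 CPM and the male non-leukemic libraries 211, 302 and 277 CPM. All 6 leukemic libraries were above all 6 non-leukemic libraries, which held for 5.05% of the genes tested in that direction. The mean was 373 ± 38.2 CPM in leukemic and 256 ± 34.5 CPM in non-leukemic libraries (SD, n = 6 each), a ratio of 1.46.

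Srm rose by 0.48 ± 0.13 on the log2 scale (SE, edgeR adjusted p = 0.0245). The call was lost when female non-leukemic replicate 2 was left out (adjusted p = 0.0676), as it was when a change of at least 1.5-fold was required (adjusted p = 1.00), and in the other settings the adjusted p ran upward from 0.00492. By sex, its log2 fold change was 0.59 ± 0.19 in females (edgeR adjusted p = 0.0767) and 0.36 ± 0.19 in males (adjusted p = 0.292), so neither sex passed alone. The nearest genes in pattern were Mydgf (0.198), Pgm3 (0.286) and Ifitm1 (0.300). All 10 T and NK cell markers rose in the same libraries, with a summed share of 0.107% to 0.231% of counts in leukemic and 0.0259% to 0.0519% in non-leukemic libraries. Of 9 markers of early granulocytes and progenitors 4 rose, at 0.735% to 1.23% of counts in leukemic and 0.554% to 1.23% in non-leukemic libraries. Of 10 eosinophil, basophil and mast cell markers 6 rose and 1 fell, and their summed share was 1.13% to 3.65% in leukemic and 0.556% to 1.1% in non-leukemic libraries. No marker of these lists was at 0 throughout, and their part in the rise of Srm was not tested.

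Sms encodes spermine synthase, which makes spermine from spermidine. It had 18.0, 19.5 and 19.1 CPM in the female leukemic and 26.0, 23.0 and 24.9 CPM in the male leukemic libraries. In female non-leukemic libraries it had 16.4, 17.5 and 20.1 CPM, and in male non-leukemic libraries 16.9, 18.4 and 14.5 CPM. The male leukemic libraries were above every other library, while the female leukemic libraries lay within the range of the female non-leukemic libraries. The log2 fold change was 0.25 ± 0.13 over both sexes (SE, edgeR adjusted p = 0.215), 0.42 ± 0.17 in males (adjusted p = 0.177) and 0.07 ± 0.17 in females (adjusted p = 0.850). The difference between the sexes was -0.35 ± 0.24 (edgeR adjusted p = 0.828). The table also lists Sms-ps, a pseudogene whose reads may be shared with Sms, at 0.187 to 0.630 CPM in leukemic and 0.215 to 0.414 CPM in non-leukemic libraries.

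Sat1 encodes the acetyltransferase that starts polyamine catabolism and export. It had 191, 87.5 and 123 CPM in the female leukemic and 126, 129 and 125 CPM in the male leukemic libraries. The female non-leukemic libraries had 137, 159.8 and 126 CPM and the male non-leukemic libraries 141, 174 and 229.7 CPM. As for Arg2, the highest value of each condition came from the library that stood apart. The other 5 leukemic libraries were at 87.5 to 129 CPM.

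The log2 fold change of Sat1 was -0.36 ± 0.22 with all libraries (SE, edgeR adjusted p = 0.316). It was -0.43 without the libraries that stood apart (adjusted p = 0.0146) and -0.58 without female leukemic replicate 1 alone (adjusted p = 0.0167), and no other setting passed, up to an adjusted p of 1.00. Of the 9 macrophage markers 4 fell, and their summed share was 0.0455% in female leukemic replicate 2, which had the lowest Sat1 level, and 0.408% in male non-leukemic replicate 3, which had the highest. No macrophage marker was at 0 throughout, and their part in the Sat1 values was not tested. The genes nearest to Sat1 in pattern were Ebi3 (0.264), Pilra (0.265) and Clec4a1 (0.276).

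**Figure D3:**
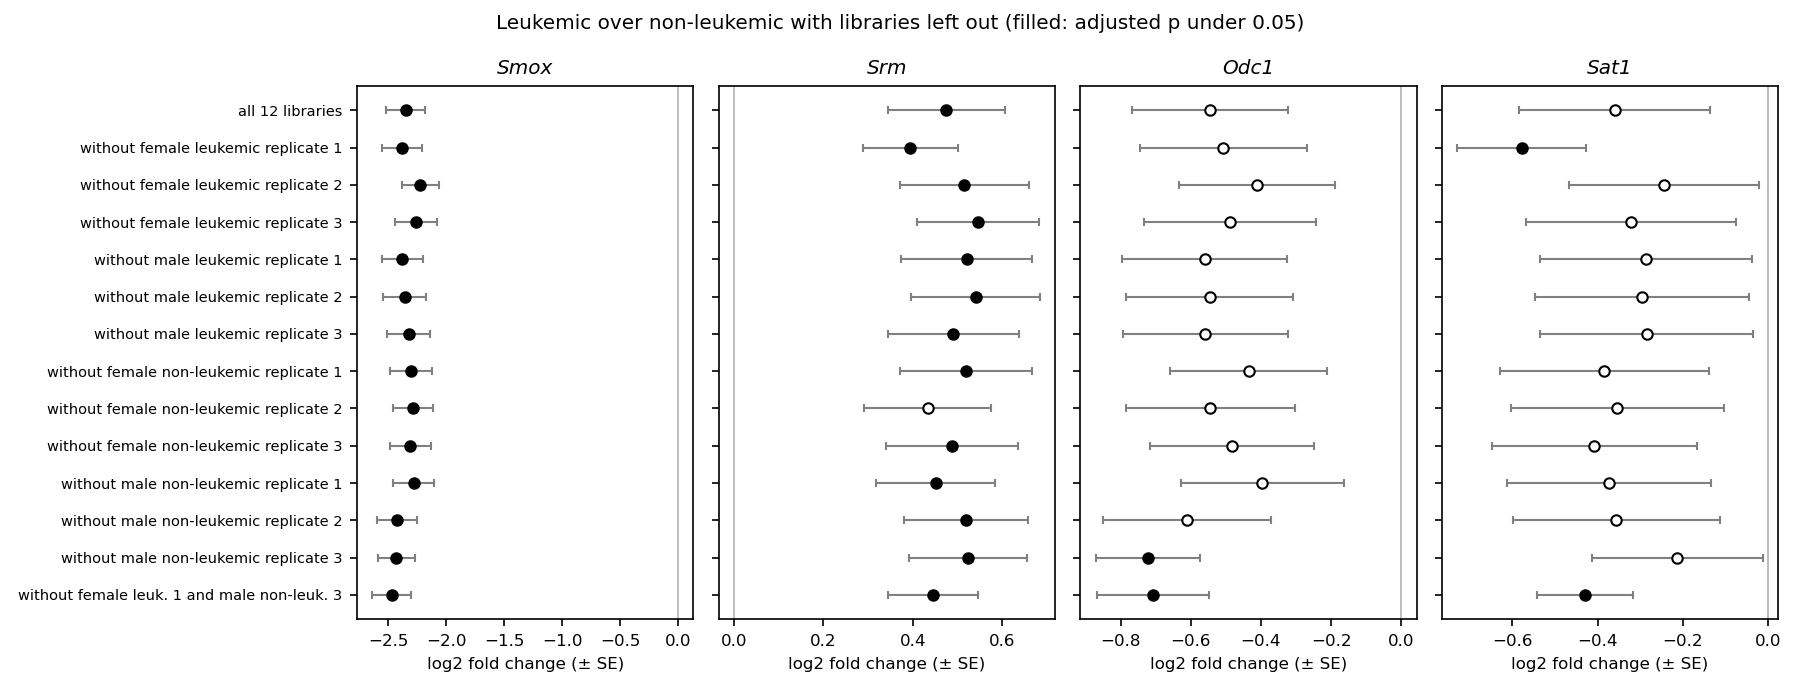
Log2 fold change with SE (x axes), leukemic over non-leukemic, of 4 genes with all 12 libraries and with libraries left out (rows). Smox stayed between -2.47 and -2.22, Srm lost its call without female non-leukemic replicate 2, Odc1 passed without male non-leukemic replicate 3, and Sat1 passed without female leukemic replicate 1.

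Without both libraries that stood apart, 4 of the 10 genes were called, with Srm higher and Smox, Odc1 and Sat1 lower, and 4717 of all genes were called. With all 12 libraries 2822 of the 15758 genes tested were called (17.9%), so the calls rose over all genes as well as among the 10. The 17.9% is therefore not the share to set beside the 4 genes. Per kilobase of exon, with lengths from GENCODE M21 on build GRCm38, Srm was at 233 ± 23.9 CPM per kilobase in leukemic and 160.3 ± 21.6 in non-leukemic libraries (SD, n = 6 each). Odc1 followed at 57.3 ± 16.9 in leukemic and 77.4 ± 24.0 in non-leukemic libraries, and Sat1 at 46.9 ± 12 in leukemic and 58.1 ± 13.6 in non-leukemic libraries. In both conditions the means of Odc1 and Sat1 differed by less than the SD of Odc1. Smox came next on this scale in both conditions, at 6.72 ± 1.44 in leukemic and 32.5 ± 5.82 in non-leukemic libraries. Slc7a1, Sms, Arg1 and Arg2 were at 1.17 to 4.83 CPM per kilobase in leukemic and at 1.64 to 3.55 in non-leukemic libraries, and Slc7a2 and Nos2 were under 0.1. Within a library, there were 14.8 ± 3.25 Srm reads per Smox read in leukemic and 2.12 ± 0.664 in non-leukemic libraries, and 7.38 ± 1.06 Odc1 reads per Smox read in leukemic and 2.06 ± 0.472 in non-leukemic libraries (SD, n = 6 each).

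The leukemia effect was also taken in each sex. In females 1 of the 9 tested genes was called, Smox, where 8.43% of all genes tested were called (3.84% higher and 4.59% lower). In males it was likewise 1, Smox, where 7.37% were called (3.34% higher and 4.04% lower). The CPM ranges of leukemic and non-leukemic libraries did not overlap for 3 of the 9 genes in females, against 27.9% of all genes tested (13.3% higher and 14.6% lower), with Srm higher and Odc1 and Smox lower. In males they did not overlap for 5 of the 9, against 34.4% of all genes tested (23.7% higher and 10.7% lower), with Srm and Sms higher and Arg2, Smox and Sat1 lower. No gene differed between the sexes in its leukemia effect by edgeR, neither among the 9 nor among all 15758. At an unadjusted edgeR p under 0.05 there were 2 of the 9, Arg2 and Smox, and 925 of all 15758, near the share of 0.05 that chance would pass. DESeq2 called 23 genes, with 0 of the 9 among them, while limma-voom called 0. The difference for Arg2, females minus males, was 2.84 ± 1.01 (edgeR adjusted p = 0.819), and 1.992 to 3.26 with 1 library at a time left out.

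**Figure D4:**
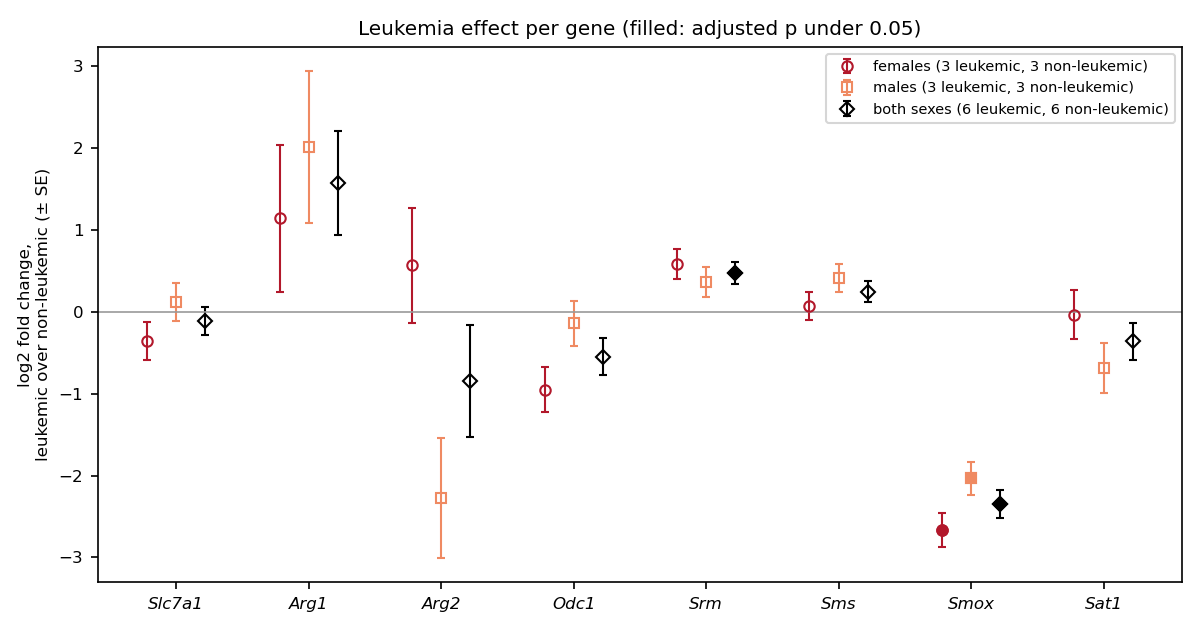
Log2 fold change with SE (y axis), leukemic over non-leukemic, of 8 of the genes (x axis) in females, in males and in both sexes together; Slc7a2 and Nos2 are left out for their low counts. Smox is filled in all 3 comparisons and Srm in that of both sexes, at -2.35 and 0.48.

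Beyond these genes, 56 further genes of arginine, nitric oxide and polyamine metabolism were examined in 8 lists, of which 47 passed the low-count filter. Of the 47, 7 rose and 11 fell, a share of 38.3% where 17.9% of all genes tested were called, and their median log2 fold change was 0.10. The lists hold few genes and were chosen with earlier results of these data known, so the share describes them only. Slc7a3, Nos1 and Agmat passed the filter only through the condition in which they were high and so had to differ. Without them 5 of 44 rose and 10 fell, a share of 34.1%.

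Of 4 tested genes of arginine synthesis and the urea cycle 1 rose, 1 fell and 2 did not pass. Ass1, which joins citrulline to aspartate on the way back to arginine, rose to 19.7 ± 4.44 CPM in leukemic libraries, against 6.55 ± 0.60 CPM in non-leukemic libraries (SD, n = 6 each), a log2 fold change of 1.49 ± 0.16 (SE, edgeR adjusted p = 5.21e-05). Asl, the next enzyme, had a log2 fold change of 0.23 ± 0.11 (edgeR adjusted p = 0.179), and Nags, which makes the activator of Cps1, fell by 2.50 on the log2 scale, which did not pass without male non-leukemic replicate 1 (edgeR adjusted p = 0.0552). Cps1 and Otc, the urea cycle enzymes of the liver, had 0 counts in all 12 libraries. Among other transporters and sensors 3 of 8 rose, Slc7a3 included, and 1 fell. The arginine exchanger subunit Slc7a6 rose by 1.09 ± 0.24 (SE, edgeR adjusted p = 0.00740), and Castor2, a relative of the cytosolic arginine sensor, rose by 0.80, a call lost in 6 of 12 single-library omissions. Slc7a3 had 123 counts in 5 of 6 leukemic libraries and 0 in all non-leukemic libraries, at least 33.1-fold higher against 3 counts over that group. The lysosomal arginine sensor Slc38a9 fell by 1.08 on the log2 scale, and Slc3a2, the shared heavy chain, had 0.26 ± 0.13 (edgeR adjusted p = 0.193).

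On the nitric oxide side 1 of 7 tested genes fell, and Nos1 was the only other called. Gch1, the first enzyme of tetrahydrobiopterin, the cofactor of nitric oxide synthases, fell to 28.5 ± 3.39 CPM in leukemic libraries, against 83.1 ± 18.5 CPM in non-leukemic libraries (SD, n = 6 each), a log2 fold change of -1.61 ± 0.15 (SE, edgeR adjusted p = 1.81e-05). Nos1, the neuronal nitric oxide synthase, had 447 counts in 5 of 6 leukemic libraries and 4 counts in 1 non-leukemic library. The erythroid markers fell in the same libraries, to 0.0726% to 0.144% of counts in leukemic against 1.47% to 1.92% in non-leukemic libraries, and their part in the fall of Gch1 was not tested.

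Of the other fates of arginine and ornithine, 1 of 8 tested genes rose and 4 fell, Agmat included. Pycr1, which makes proline in mitochondria, rose by 1.33 ± 0.24 (SE, edgeR adjusted p = 0.00185), whereas Oat, which sends ornithine toward proline and glutamate, fell by 0.37. Gatm, which starts creatine synthesis from arginine, fell by 0.65 ± 0.12 (edgeR adjusted p = 0.00229), and Agmat had 6 counts in leukemic and 112 in non-leukemic libraries. The regulators of ornithine decarboxylase fell in 2 of 4 tested genes. Azin1, the antizyme inhibitor that protects the enzyme, fell by 0.59 ± 0.12 (SE, edgeR adjusted p = 0.00434), and Oaz1, the antizyme that sends it to the proteasome, by 0.46 ± 0.14 (edgeR adjusted p = 0.0360). When single libraries were left out, Oaz1 lost its call in 9 of 12 omissions and Oat in 4.

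The genes that supply the aminopropyl donor of Srm and Sms and salvage its by-product were split: of 8 tested, 1 rose and 2 fell. Mtap, which cleaves the methylthioadenosine left by polyamine synthesis, rose to 98.9 ± 18.6 CPM in leukemic libraries, against 49.8 ± 10.9 CPM in non-leukemic libraries (SD, n = 6 each), a log2 fold change of 0.90 ± 0.14 (SE, edgeR adjusted p = 0.000911). Apip, a later step of the salvage, fell by 0.81 ± 0.13 (edgeR adjusted p = 0.00109), and Mat2b by 0.32, a call lost in 9 of 12 single-library omissions. Amd1, which makes the decarboxylated donor, had a log2 fold change of -0.23 ± 0.14 (edgeR adjusted p = 0.314). Neither the 4 tested genes of other polyamine catabolism and transport nor the 4 of the hypusine pathway, which uses spermidine to modify Eif5a, passed. Among them Paox had 0.37 ± 0.15 and Eif5a 0.10 ± 0.13 (edgeR adjusted p = 0.122 and 0.652). Without both libraries that stood apart, Paox, Atp13a2, Asl, Qdpr and Enoph1 were called in addition, and all 18 genes called with 12 libraries kept their call.

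**Figure D5:**
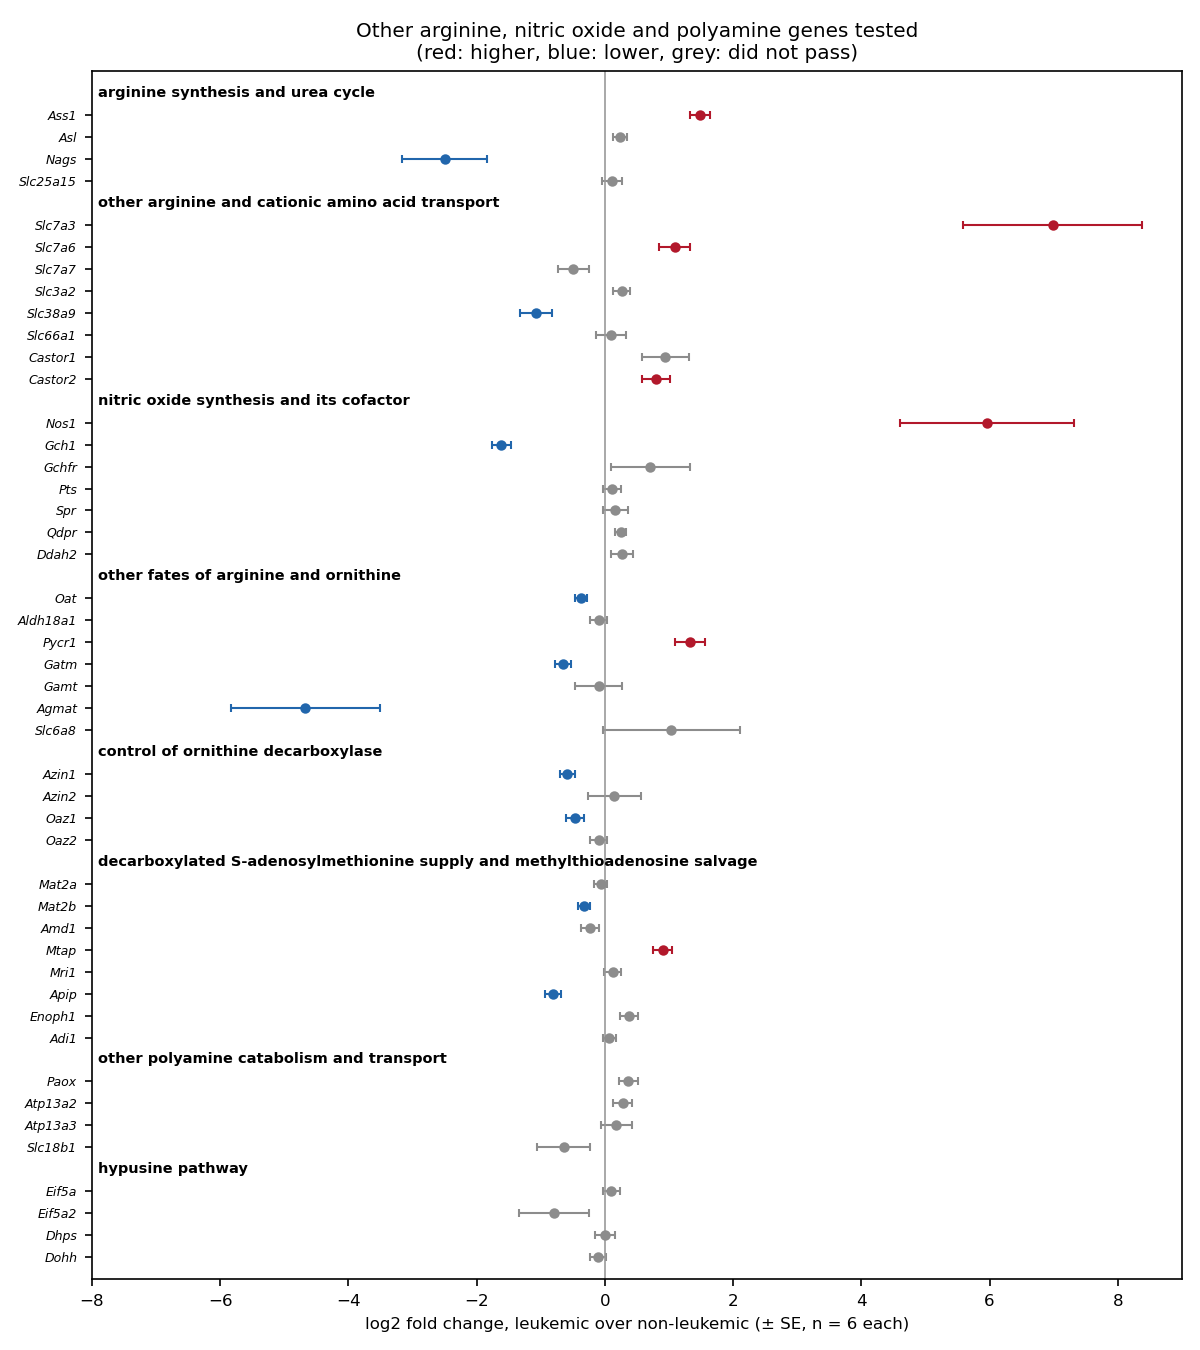
Log2 fold change with SE (x axis), leukemic over non-leukemic with 6 libraries each, of 46 of the 47 further pathway genes tested, grouped by list (rows). The 7 genes that rose include Ass1 at 1.49 and Mtap at 0.90, and the 10 plotted that fell include Gch1 at -1.61 and Azin1 at -0.59.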

How the data were processed

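The authors deposited 1 table of raw counts per gene with 1 column per library, without normalization. Per the submitters' processing notes, the build was GRCm39 and the tools named, without order or settings, were featureCounts, Subread 2.0.1, STAR 2.7.9a, fastp 0.23.1, bcl2fastq 2.19.1, R 4.0.2 and DESeq2 1.28.1. Per the labels' protocols, full-length cDNA amplified from 1 ng of RNA was tagmented, without strand or molecule tags, so counting limits cover counting error only.

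Genes were filtered with filterByExpr over the 4 groups and scaled by TMM, and tested in edgeR 4.0.16 (R 4.3.3) by its robust quasi-likelihood F test. For the comparison of conditions, sex was a term and all 12 libraries entered. Effects in each sex and their difference came from a model of 4 group means. The two-sided p-values of all 15758 genes tested were adjusted together (Benjamini-Hochberg) with a threshold of 0.05, and the SE is the log2 fold change divided by the square root of F. Alternatives were RLE size factors, DESeq2 1.42.0, limma-voom (limma 3.58.1), other filters, a 1.5-fold minimum, a replicate block, no sex term, fits of a single sex and omitted libraries. The pipeline was tested on simulated data.

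The 10 genes, the pathway and marker lists and the libraries left out together were chosen with earlier results of these data known. All 10 genes are named, and pathway genes by their lists; 1 pathway gene enters the counts and is not reported here. Pattern likeness used the 3 nearest genes with a mean log2 CPM (prior count 2) of at least 3. No library was a copy of another (chi-square per degree of freedom at least 22.6 within groups). Total counts were 16911827 to 30014855 per library.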

Additional observations from a re-analysis of the deposited data

Results flagged for a closer look

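In each condition, the library farthest from the other 5 was examined for each of the 10 genes, with the gap to its nearest neighbour set against the whole range, where 0.625 is the limit for 6 libraries. Of the 20 groups examined, 4 passed it. Chance passes this limit in about 1 of 20 groups, a rate that does not hold for Nos2, which had 0 counts in 9 of 12 libraries. Arg2 was far above the rest in female leukemic replicate 1 (a gap of 0.660 of the range) and in male non-leukemic replicate 3 (0.697), the libraries that stood apart in other measures as well. Nos2 was present in few libraries, with male leukemic replicate 1 above the others (0.850) and male non-leukemic replicate 2 the only non-leukemic library with counts, for which the gap is 1.00 by construction.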

How the results depend on the processing

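Smox passed in all 21 alternatives and Srm in 19, while Sms, Arg2, Slc7a1 and Slc7a2 passed in none for both sexes together. Without the 2 libraries that stood apart, the calls were 4717 of all genes, 4 of the 10 genes and 23 pathway genes over both sexes, 2368 genes, 2 of the 10 and 11 pathway genes in females, and 2728 genes and 14 pathway genes in males. All 12 libraries gave 2822 genes over both sexes. DESeq2 called 2359 genes, 3 of the 10 and 12 pathway genes in females, where edgeR called 1328, 1 and 5, and 2053, 3 and 14 in males, where edgeR called 1162, 1 and 7, and it called 23 genes for the difference between the sexes, where edgeR called 0. Against a 1.5-fold minimum 978 genes, 1 of the 10 and 6 pathway genes passed over both sexes. In females, 2 of the 10 passed with no filter, with the 5 CPM filter and with female libraries alone, and 3 pathway genes with no filter.

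Leaving out 1 library at a time gave 2108 to 3910 genes, 1 to 3 of the 10 and 12 to 20 pathway genes over both sexes, 504 to 1773, 1 to 3 and 2 to 9 in females, and 513 to 2087, 1 to 2 and 2 to 13 in males. Such omissions turned the sign of log2 fold changes that had not passed: Arg1 in females (-0.28 to 1.61) and in its sex difference (-2.31 to 0.73), Arg2 in females (-0.23 to 0.99), Odc1 in males (-0.43 to 0.28), Sat1 in females (-0.46 to 0.27), Slc7a1 in males (-0.012 to 0.33), and Slc7a2 over both sexes (-1.18 to 1.47), in females (-5.78 to 0.80), in males (-5.30 to 3.70) and in its sex difference (-7.48 to 5.51). Without both libraries the sign turned for Arg1 (-0.28) and Arg2 (-0.23) in females and for the sex differences of Sat1 (-0.065) and Srm (-0.061). It turned for Slc7a2 with limma-voom (-0.88 over both sexes, -1.45 in females, -0.29 in males) and for Sat1 in females with the 5 CPM filter (0.014). The cause was not tested.

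With the replicate number as a block, 2509 genes were called over both sexes, Srm had a log2 fold change of 0.47 (edgeR adjusted p = 0.0468), and Slc7a2 in females was at -0.0024. The correlations of deviations of same-numbered libraries were -0.113 to 0.0782 over 18 pairs, and those of differently numbered libraries -0.0944 to 0.107 over 36 pairs. These values take all tested genes together, so a factor shared by same-numbered libraries in few genes was not tested. At 3 counts, depth limits what can be seen of Nos2 and Slc7a2.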
